A study of Drosophila melanogaster with 4 samples.

Results

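The regions described here are stretches of the Drosophila melanogaster X chromosome that were enriched for H3K79me1, monomethylation of a lysine in the globular core of histone H3, in nuclei from adult heads. They were taken by position alone. A region belonged if it lay on the X, was named by the authors as enriched, and had its midpoint above position 2242282 of FlyBase release 5. Dividing the 22422827 bp of the X into 10 equal segments counted from the telomere, this leaves out segment 1, the distal segment. In the combined list 1789 of 12942 regions met the rule. The list of replicate 1 held 825 of 7603 and that of replicate 2 held 735 of 8137.

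The series has 4 samples, 2 ChIP libraries made with an H3K79me1 antibody (Abcam lot 1) and 2 input libraries. All came from wild-type Oregon-R flies (Oregon-R-modENCODE) at a stage labelled Mixed Adult; no treatment is named. Flies were raised in population cages, their heads were separated by sieving and the chromatin was fixed with formaldehyde, so it pools neurons, glia and all other head cells. The labels give neither sex nor an age for each sample, and do not say whether the replicates were separate collections of flies, so the spread between them may be technical.

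Dot1 enzymes, of which grappa is the fly member, methylate this lysine. The mark is generally found over the bodies of transcribed genes. The fly X is known for dosage compensation. In males the MSL complex binds active X-linked genes, acetylates histone H4 there and raises their transcription to match the paired X of females. The files give positions but no genes. Which genes lie under the regions was not analysed here, and no sequence of release 5 was used.

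Each region carries the authors' score, which has no stated unit and behaves as a log2 value. Except for overlapping pairs of replicate regions, scores are compared within a list. Library depth is unknown, in all and for the X relative to the arms. Since sex is not given, the number of X copies relative to those of the arms is unknown too. The part of either in the differences below was not tested. Arms 2L, 3L and 3R served as background, with 8216 regions in the combined list, 4867 in replicate 1 and 5310 in replicate 2. Where the X stood outside the range of these arms, the exact one-sided permutation p over the 4 arms was 0.25, the smallest that 4 arms can give. No difference between the X and the arms could therefore pass a threshold of 0.05, and each is given with its values. The side tested was the one on which the X lay, so these p-values only describe its rank. In measures at equal width the X was matched to 3 arms and each arm to the other 2.

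The X regions were fewer and narrower than those of the background arms. They covered 22.2% of the X stretch in the combined list, against 36.3% on average for 2L, 3L and 3R. In the replicate lists X coverage was 9.06% ± 0.821, against 19.7% ± 1.25 for the arms (SD, n = 2). The X had 88.6 regions per Mb in the combined list, 40.9 in replicate 1 and 36.4 in replicate 2. The arm means were 109 regions per Mb in the combined list, 64.3 in replicate 1 and 70.0 in replicate 2. X coverage and density lay below all 3 arms in all 3 lists. The order of the densities turned round when the higher-scoring 50% of the combined list was kept, with 72.2 regions per Mb on the X against 46.0 on the arms. That choice keeps 81.5% of the X regions and 42.4% of the arm regions.

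The median X region was 1729 bp wide in the combined list, with quartiles at 1241 and 2733 bp. It was 1861 bp wide in replicate 1 and 1815 bp in replicate 2. Arm medians lay between 1968 and 2105 bp in the combined list, between 2028 and 2087 bp in replicate 1 and between 2035 and 2105.5 bp in replicate 2. Of the X regions in the combined list, 1124 (62.8%) were under 2 kb, 507 were 2 to 5 kb, 119 were 5 to 10 kb and 39 (2.18%) were 10 kb or wider. On the arms 48.8% were under 2 kb and 4.48% were 10 kb or wider. The widest 10% of X regions held 32.3% of the X length, against 36.3% on the arms.

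Among the regions listed as enriched, scores on the X were higher than those of equally wide regions elsewhere. A score exists only for a listed region, and how regions were called is not given. The 5th percentile of all scores in the combined list was 0.39 on the X and 0.31 to 0.32 on the arms. For each X region the score was set against the median of all 2L, 3L and 3R regions whose width lay within 5% of its own. The median difference was 0.10 in the combined list, 0.11 in replicate 1 and 0.17 in replicate 2 on the log2 scale (replicate mean 0.14 ± 0.041, SD, n = 2). As ratios these are 1.07, 1.08 and 1.12. The same measure for each background arm against the other 2 arms stayed within 0.0027 of 0 in every list. In the combined list 1642 of 1789 X regions (91.8%) scored above the level of equally wide regions, where 50.1% of arm regions did. The X shares were 87.0% in replicate 1, where 49.7% of arm regions did so, and 96.3% in replicate 2, where 50.1% did. In the higher-scoring 50% of the combined list the median difference was 0.051. That cut was made on the compared score itself and kept 81.5% of the X regions but 42.4% of the arm regions. Such a cut can narrow a score difference by itself, so this value does not show the part of a score limit. Whether the calling of regions had a part in the difference was not tested.

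The difference was present across widths. Under 2 kb the median score of the combined list was 0.50 on the X and 0.40 on the arms. At 2 to 5 kb it was 0.57 on the X and 0.47 on the arms, at 5 to 10 kb 0.65 and 0.57, and at 10 kb or wider 0.71 and 0.65. In replicate 2 the class differences lay between 0.17 and 0.22, with the highest among the widest regions, of which the X had 5. In replicate 1 they lay between 0.02 and 0.11, with the lowest among the widest regions, of which the X had 7. Both ends of the range were higher on the X. Under 2 kb the 5th percentile of the combined list was 0.37 on the X and 0.29 on the arms, and the 95th percentile was 0.64 on the X and 0.50 on the arms. In the 3 wider classes of that list the upper end differed less. There the 95th percentile on the X was higher by 0.04, 0.03 and 0.03, and the 5th percentile by 0.09, 0.08 and 0.06. In the replicate lists the 95th percentile was higher by 0.06 to 0.22 in these classes. Among regions with a base in both replicate lists the equal-width difference was 0.10, and among those in neither it was 0.11.

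**Figure D1:**
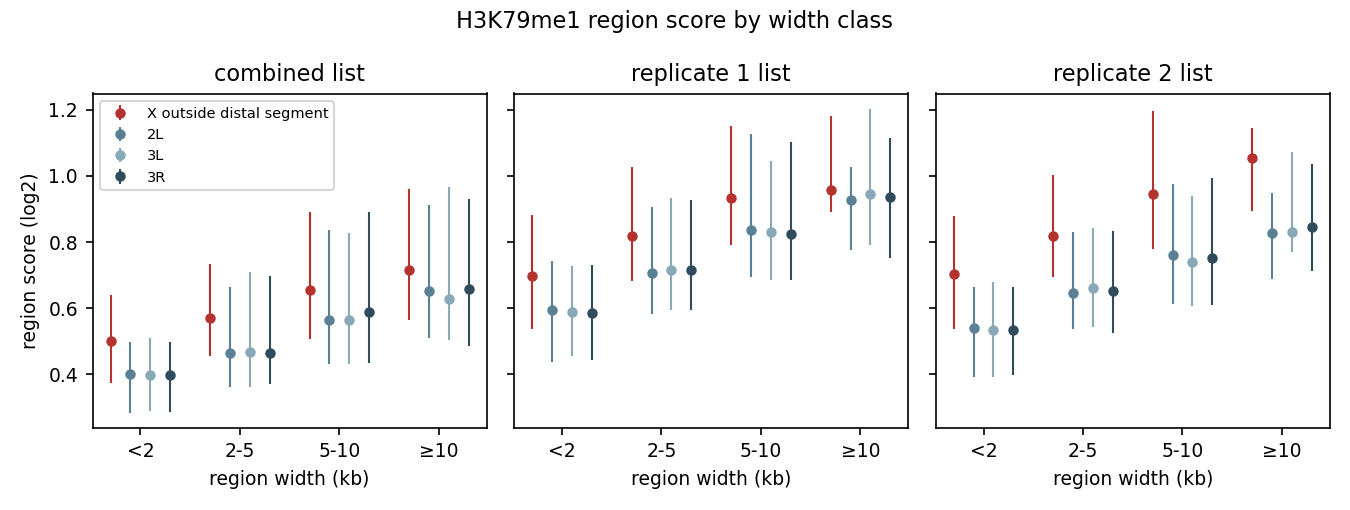
Median region score (log2, points) with the 5th to 95th percentile (bars) in 4 width classes, for the X outside its distal segment and for 2L, 3L and 3R, in each list. X medians stand above those of all 3 arms in every class and list, by the least among the widest regions of replicate 1.

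The higher score was spread along the whole X stretch. In segments 2 to 10, the median equal-width difference ran between 0.09 and 0.12 in the combined list, between 0.08 and 0.13 in replicate 1 and between 0.15 and 0.19 in replicate 2. None of the 30 equal segments of 2L, 3L and 3R reached the lowest X value in any list. Their values lay between -0.02 and 0.02. The distal segment of the X had differences of 0.12 in the combined list, 0.12 in replicate 1 and 0.19 in replicate 2. Coverage of the distal segment was higher than in any other segment of the X in all lists, with 36.6% in the combined list.

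**Figure D2:**
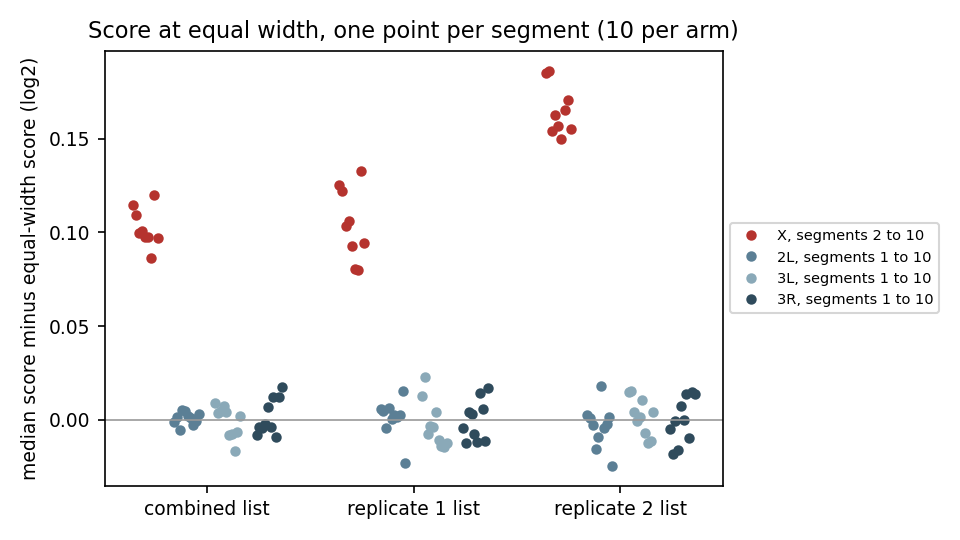
Median score minus the score of equally wide regions (log2), with 1 point for each of 10 equal segments of an arm, by list. The 9 X segments lie between 0.08 and 0.19, and the 30 segments of 2L, 3L and 3R lie between -0.02 and 0.02.

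Coverage varied 2.43-fold between segments in the combined list. It was highest in segment 2, with 33.0%, and lowest in segment 10, next to the centromere, with 13.6%. Segment 2 was covered to 14.5% in replicate 1 and 11.5% in replicate 2, and segment 10 to 6.17% and 5.51%. Segment 7, from 13453697 to 15695979, had 13.7% in replicate 1 and 12.5% in replicate 2, where it was the most covered of segments 2 to 10. Segments of 2L, 3L and 3R ranged between 19.8% and 47.6% in the combined list. The segment next to the centromere was also the least covered on 2L (19.8%) and 3L (25.1%), but not on 3R (34.8%). Median width of the X regions varied less between segments than coverage, between 1529 and 1823 bp in the combined list.

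**Figure D3:**
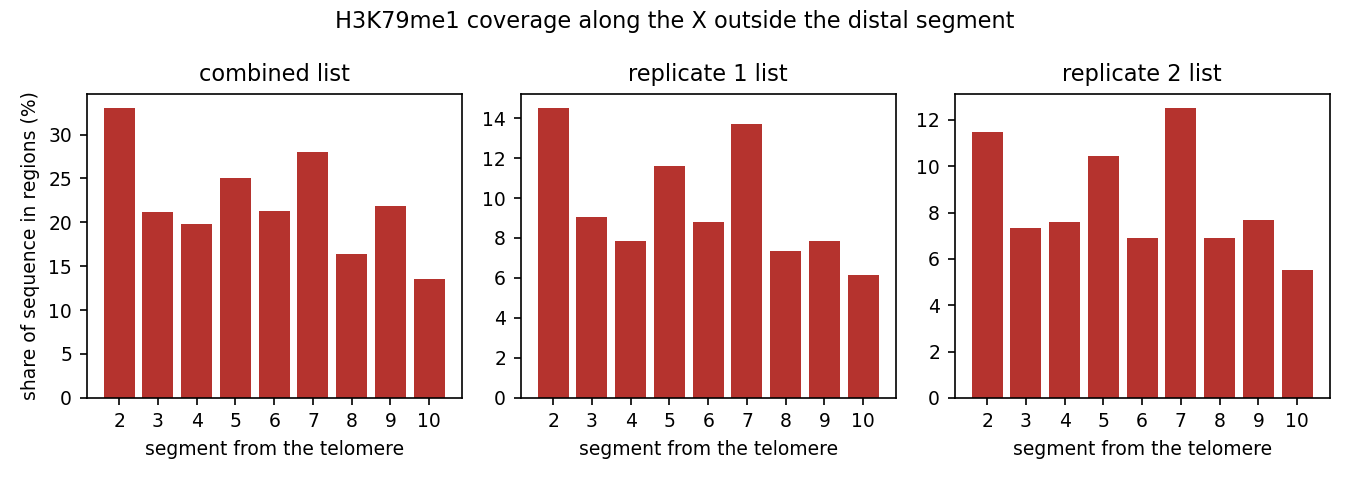
Share of sequence inside regions (%) in segments 2 to 10 of the X, counted from the telomere, with a separate vertical scale for each list. Segments 2 and 7 are the 2 most covered in every list, and segment 10 is the least covered.

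The 3 windows of 100 kb with the highest mean coverage of the replicates all lay in segment 7. From 15342283 to 15442282, replicate 1 covered 43.7% and replicate 2 covered 50.3%. From 14742283 to 14842282 the shares were 52.5% and 39.1%, and from 13542283 to 13642282 they were 42.4% and 37.3%. Across 201 windows of the X, which are not independent, Spearman's rho between the replicates was 0.86, against 0.93 to 0.94 on the 3 arms. The same 14 X windows (6.97%) were empty in both replicates, and another 32 were empty in just 1 of them. On the arms 5 to 8 windows were empty in just 1 replicate. Windows empty in both made up 6.96% of 2L, 4.49% of 3L and 2.87% of 3R, so the X share was close to that of 2L.

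Gaps between X regions were longer than on the arms. The median gap was 2867 bp in the combined list, 6720.5 bp in replicate 1 and 8046 bp in replicate 2. The means of the arm medians were 1894 bp in the combined list, 3964 bp in replicate 1 and 3880.5 bp in replicate 2. A region within 5 kb was found next to 1510 of 1789 X regions (84.4%), against 91.5% on the arms. In the replicates the X share was 64.5% ± 2.35, against 77.8% ± 0.557 on the arms (SD, n = 2). With the arms thinned to their highest-scoring regions, down to the density of the X, their share was 85.8% in the combined list. Their median gap was then 2613 bp, and the X minus this value was 254 bp, against 973 bp without thinning. In the higher-scoring 50% of the combined list the order turned round, with 77.5% on the X and 64.1% on the arms, and the median gap was 3875 bp on the X and 7089 bp on the arms.

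The X was less uneven in its spacing than the arms by one measure and more uneven by another. The SD of the gaps over their mean was 2.03 on the X in the combined list, against 2.46 to 2.56 on the arms. It was 1.84 in replicate 1 and 1.75 in replicate 2, below all 3 arms. Thinning the arms brought their mean to 2.29, and in the higher-scoring 50% the X was above the arms, with 1.89 against 1.69. The count of regions per 100 kb had a variance over mean of 2.94 on the X, against 2.07 to 2.69 on the arms. It was 3.17 in replicate 1, above all 3 arms, and 2.58 in replicate 2, within their range of 2.30 to 2.68 (exact one-sided permutation p = 0.5). Windows without a region made up 1.99% of the X and 3.37% of the arms in the combined list, but 14.9% of the X in each replicate, against 6.60% of the arms in replicate 1 and 5.74% in replicate 2. Gaps of 50 kb or more made up 24.4% of the X stretch and 14.7% of the arms in the combined list. In the replicates they made up 55.5% ± 1.46 of the X and 30.4% ± 2.36 of the arms (SD, n = 2).

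**Figure D4:**
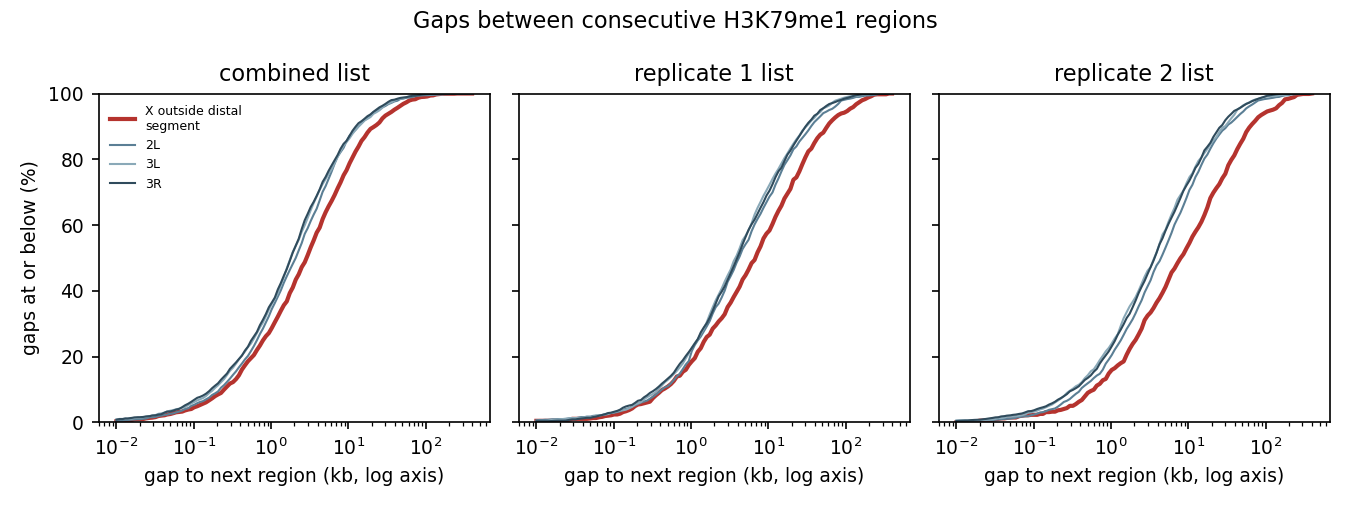
Cumulative share (%) of the gaps between consecutive regions at or below a given length (kb, log axis), for the X outside its distal segment and for 2L, 3L and 3R. The X curve lies to the right of the arm curves at the median, where gaps were 2867, 6720.5 and 8046 bp in the 3 lists.

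Joining X regions separated by at most 5 kb gave 650 runs in the combined list, of which 279 were single regions. Runs of 10 or more regions numbered 25 and held 322 regions (18.0%), against 27.9% of regions on the arms. The longest by number had 21 regions over 76.9 kb, from 13745332 to 13822186, of which 78.1% was covered. Replicate 1 had 12 regions there and replicate 2 had 10. The next had 20 regions from 9254962 to 9334438, with 12 regions in replicate 1 and 6 in replicate 2. The third had 17 regions from 3192108 to 3265580, with 11 and 9. Regions with a base in both replicate lists numbered 6 in the first run, 5 in the second and 5 in the third. Runs of 10 or more held 0% of the X regions of replicate 1 and 1.63% of those of replicate 2. The arms had 7.91% and 8.25%. For runs, the X and the arms were not compared at equal density.

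The longest stretch without a region was 245 kb near the centromere, from 21602527 to 21847793. A stretch of 163 kb ran from 4264813 to 4427437 and another of 152 kb from 8614709 to 8767079. None of these 3 held a region of either replicate. In all, 57 stretches of 50 kb or more made up 4.92 Mb, and 39 of them had no replicate region either. Assembly gaps and unmappable sequence were not analysed here, and their part in these stretches was not tested.

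The 5 widest X regions scored between 0.61 and 0.85. The widest spanned 21.8 kb from 12691966 to 12713718 with a score of 0.61, below the 0.67 of equally wide arm regions. Replicate 1 covered 57.8% of it and replicate 2 covered 62.1%, with 6 regions each. Next came 21.0 kb from 21154136 to 21175108 (score 0.85), covered to 89.2% by replicate 1 and 57.2% by replicate 2. The third, 20.2 kb from 18430172 to 18450324 (0.72), was covered to 58.9% and 76.2%. The fourth, from 5664954 to 5685104 (0.83), was covered to 83.8% and 71.0%. The fifth, from 20933624 to 20953312 (0.66), was covered to 64.2% and 62.7%. The widest and the fifth scored below the level of equally wide arm regions and the other 3 above it.

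The X regions with the highest scores among those in both replicates were undivided domains of 6 to 16 kb. The top one, from 16285612 to 16294382, had a combined score of 1.30, against 0.62 for equally wide arm regions. Its score was 1.40 in replicate 1 and 1.37 in replicate 2, in each case from 1 region over at least 86.6% of its length. The second was the 15.8 kb domain from 9451278 to 9467038, with scores of 1.16 in the combined list, 1.27 in replicate 1 and 1.17 in replicate 2. It was covered to 89.4% and 95.7% by 1 region of each replicate. The domain from 9130418 to 9136450 scored 1.06 in the combined list, 1.02 in replicate 1 and 1.20 in replicate 2. That from 15657560 to 15667806 scored 1.04, 1.20 and 0.99 in the same lists, and that from 15348882 to 15356320 scored 0.99, 1.10 and 1.01. All 5 scored above equally wide arm regions in the combined list, by 0.39 to 0.68.

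The highest scores of any kind belonged to regions close to the least width in the list. The top 5 were 1001 to 1009 bp wide, scored 2.48 to 3.30 and were absent from both replicate lists. They started at 4683542, 4820218, 15315994, 14451734 and 13999378. Of the 19 X regions with a score of 1 or more, 13 were narrower than 1301 bp, the narrowest region of the replicate lists, and 4 had a base in both replicates. Next to the positional threshold, the regions just inside started at 2241788 and 2257254 with scores of 0.54 and 0.59. Those just outside started at 2227452 and 2239570 with scores of 0.75 and 0.51.

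Support in the replicate lists was lower on the X. Of the X regions in the combined list, 368 of 1789 had a base in both replicate lists (20.6%, 95% Wilson interval 18.8 to 22.5), where 33.3% of the whole combined list did. A further 309 (17.3%) overlapped the list of replicate 1 alone, 237 (13.2%) that of replicate 2 alone, and 875 (48.9%) overlapped none. Of these 875, 449 were narrower than 1301 bp, the narrowest region of the replicate lists, as were 1458 of 3102 such arm regions. On the arms 34.3% were in both, 11.4% in the list of replicate 1 alone, 16.5% in that of replicate 2 alone and 37.8% in neither. The larger single-replicate share was thus that of replicate 1 on the X and that of replicate 2 on the arms. Arm regions of the same widths were in both lists in 23.8% of cases, and the X minus this share was -3.25 percentage points. Without the regions narrower than 1301 bp the shares were 28.6% on the X and 33.1% for arm regions of the same widths. The regions in both replicates were the wide ones. Their median width was 4173 bp and they held 44.7% of the X length, whereas those in neither had a median of 1287 bp. On the arms the regions in both had a median width of 4543 bp and those in neither one of 1332 bp. At 2 to 5 kb, 200 of 507 X regions (39.4%) were in both lists, against 51.3% on the arms. The other classes were closer. All regions of 10 kb or more were in both lists on the X (39 regions) and on the arms (368 regions). At 5 to 10 kb the share was 90.8% on the X and 94.9% on the arms, and under 2 kb it was 1.87% on the X and 2.24% on the arms.

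The replicates differed in how far their X regions were found again. In replicate 1, 458 of 825 X regions had a base in replicate 2 (55.5%, 52.1 to 58.9), where 73.5% of the whole replicate 1 list did. Arm regions of equal width reached 69.8%, and the X minus this share was -14.2 points. In replicate 2, 451 of 735 X regions had a base in replicate 1 (61.4%, 57.8 to 64.8), where 68.4% of the whole list did. Arm regions of equal width reached 61.5%, and the X minus this share was -0.127 points, within the range of the arms (exact p = 0.5). The list in which the regions were sought covered 8.48% of the X and 18.2% to 22.6% of the arms for replicate 2. For replicate 1 it covered 9.64% of the X and 16.9% to 20.3% of the arms. Its part in the difference was not tested.

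**Figure D5:**
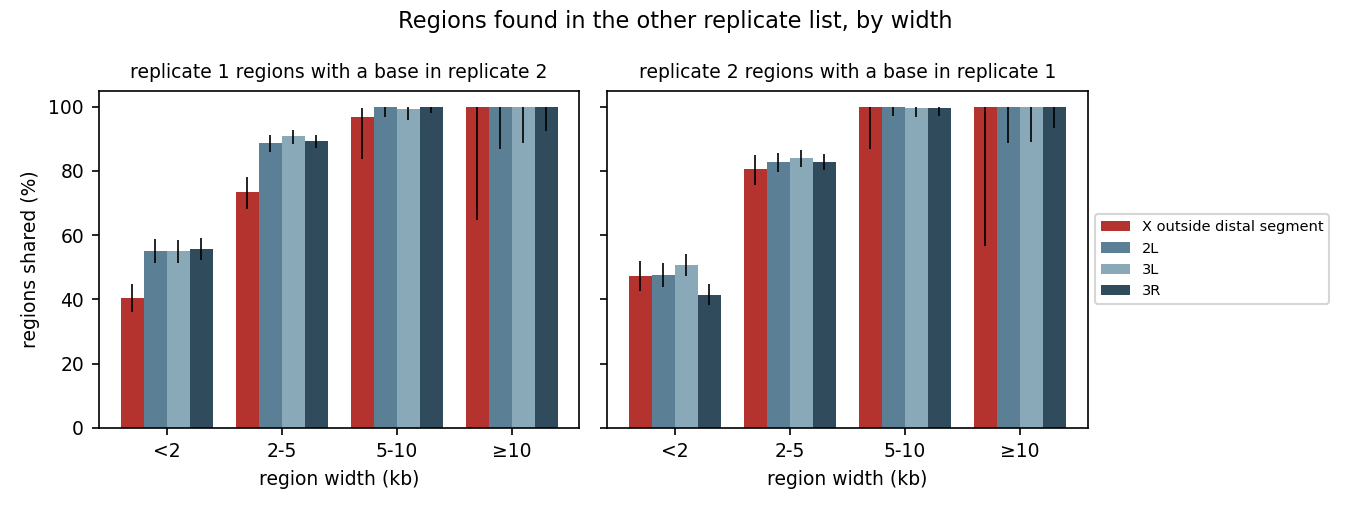
Share (%) of the regions of each replicate list with at least 1 bp in the other, by width class, with 95% Wilson intervals that cover counting error only. Under 2 kb the X stands at 40.4% in replicate 1, below all 3 arms, and at 47.2% in replicate 2, within the range of the arms. At 2 to 5 kb the X is below all 3 arms in both. It stands at 73.4% against 88.7% to 90.8% in replicate 1, and at 80.7% against 82.8% to 84.1% in replicate 2.

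Where a single X region of each replicate overlapped, the match was looser than on the arms. There were 298 such X pairs, with a Spearman's rho of 0.30 for scores and 0.38 for widths. On the arms rho was 0.53 to 0.61 for scores and 0.62 to 0.64 for widths, over 672 to 899 pairs. The shared length was a median of 0.588 of the joint length on the X, against 0.712 to 0.734 on the arms. Pairs were not matched for width. Their median widths on the X were 2120.5 bp in replicate 1 and 2015.5 bp in replicate 2. On the arms they were 2178.5 to 2338.5 bp in replicate 1 and 2305 to 2447 bp in replicate 2. The part of width in the looser match was not tested. Scores in replicate 2 were a median of 0.01 below those in replicate 1 on the X, and 0.05 to 0.06 below on the arms. The widest replicate 1 regions without a base in replicate 2 were 7.02 kb from 14782748 to 14789771, 4.78 kb from 5839697 to 5844472 and 4215 bp from 10392466 to 10396680. Those of replicate 2 were narrower, at 3.67 kb from 21081768 to 21085436, 3.66 kb from 18229573 to 18233234 and 3655 bp from 17352333 to 17355987. At least 95.6% of the length of each of these 6 regions lay inside a combined region.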

How the data were processed

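The submitters' processing notes name Bowtie 0.12.7. Deposited were 3 lists of enriched regions, from ChIP replicate 1, ChIP replicate 2 and the combined replicates, with coordinates on FlyBase release 5 per the file headers. How regions were called, filtered and combined is not given in the sources used here. Each score deposited by the authors was read as log2. Raising 2 to score differences gave ratios of whole numbers (denominators up to 5000, relative tolerance 1e-11) for 96.9% to 99.9% of regions, against at most 1.18% on natural log or log10 scales. The 1 depleted region was left out. Depth is unknown, and inputs have no list of their own.

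Widths, gaps and overlaps (at least 1 bp) were computed with scipy 1.17.1, pandas 2.3.3 and numpy 2.4.6 in Python 3.11.15, with plots from matplotlib 3.10.9. Equal width meant within 5%, with at least 5 arm regions. The X was set against 2L, 3L and 3R by exact one-sided permutation over 4 arms, on the side where the X lay. Scripts were tested on simulated lists. Alternatives covered lists, score and width limits, background, tolerance, overlap, distances and density. Named regions were the 5 widest, the 5 highest-scoring (in both replicates, and of any kind), the 3 longest runs, region-free stretches, most covered windows and unshared regions of each replicate, and those next to the threshold. Members, measures and rules were chosen with earlier results of these data known. No genome of release 5 was used.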

Additional observations from a re-analysis of the deposited data

How the results depend on the processing

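Of 64 alternatives over 9 results with an SD between replicates, 31 moved the value by less than it, 29 by more, and 4 turned the direction. Each SD came from the 2 single replicate lists (n = 2), which are themselves among the alternatives. For the share in both replicates at equal width the SD was 9.98 points, against a main value of -3.25. A move below that SD therefore says little about that result. The direction turned only with the higher-scoring 50% of the combined list, which keeps a larger share of the X regions, since their scores were higher. There the X over the arms was 1.57 for regions per Mb, and X minus arms was 13.4 points for neighbours within 5 kb, -3214 bp for the median gap and 0.20 for the gap SD over mean. The same choice gave 0.813 for coverage (main 0.612), -1801 bp for median width (main -314), 0.051 for score at equal width and -1.44 points for length in the widest 10%. Regions no narrower than those of the replicates gave 0.734 for density, -493 bp for width, -12.7 points for neighbours and -0.37 for gap SD over mean. Arms thinned to the X density gave -689 bp, -1.37 points for neighbours, -0.26 for gap SD over mean and -3.56 points for length in the widest regions. Merging within 1000 bp gave -0.33 for gap SD over mean, and a 10 kb distance gave -3.26 points for neighbours. Single replicate lists gave 0.411 to 0.511 for coverage, 0.520 to 0.636 for density, -252.5 to -203 bp for width, 0.11 to 0.17 for score, -15.3 to -11.2 points for neighbours, 2756.5 to 4165.5 bp for the gap, -0.28 to -0.18 for gap SD over mean and -4.92 to -4.38 points for the widest regions. The share in both replicates at equal width was -14.2 points for replicate 1. Spearman's rho of windows, which has no such SD, was 0.81 at 50 kb and 0.86 at 200 kb (main 0.86). The causes of the other changes were not tested. Thinning for width, gap and widest regions, and the score in both or neither replicate, were chosen after seeing the data. No paired analysis was possible because no list of regions was given for either input. How far depth shaped the size of each list cannot be told, since depth is unknown.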

Other observations

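The X regions of replicate 1 were divided into 4 classes by their score relative to equally wide arm regions, whose median widths lay between 1816 and 1876 bp. The share with a base in replicate 2 was 55.6% in the lowest class and 56.3% in the highest. On the arms the lowest and highest classes of replicate 1 stood at 77.2% and 70.1% on 2L, 76.2% and 78.1% on 3L, and 75.3% and 78.7% on 3R. The median widths of these arm classes were 2149 and 2028 bp on 2L, 2031 and 2208 bp on 3L, and 2029 and 2674 bp on 3R. In replicate 2 the share with a base in replicate 1 was 68.5% in the lowest class (95% Wilson interval 61.4 to 74.8) and 54.3% in the highest (47.1 to 61.4). On the arms the lowest and highest classes of replicate 2 stood at 70.9% and 62.4% on 2L, 73.2% and 69.8% on 3L, and 71.2% and 64.8% on 3R. In the combined list the share of X regions in both replicates was 19.0% in the lowest class, 14.1% and 16.3% in the middle classes and 32.9% in the highest. On the arms the lowest and highest classes stood at 27.7% and 53.7% on 2L, 34.1% and 58.9% on 3L, and 29.4% and 61.4% on 3R. These shares were not matched for width. Median widths in the lowest and highest classes of the combined list were 1781 and 1773 bp on the X. They were 2463 and 2505 bp on 2L, 2656 and 2881 bp on 3L, and 2618 and 2927 bp on 3R. Scores of neighbouring X regions were nearly unrelated, with Spearman's rho between 0.03 and 0.09 in the 3 lists, and so were those on the arms, with rho between 0.04 and 0.09.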
